A study of Mus musculus with 4 samples.

Results

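The genes of respiratory complexes II, III and V were examined on 4 arrays of mouse heart RNA, 2 labelled as wild type (NTg) and 2 as carrying a Sirt1 transgene (Tg-Sirt1). Genes were taken by symbol: Sdha, Sdhb, Sdhc, Sdhd, Cyc1, and every symbol starting with Uqcr or Atp5. This gave 30 genes of the 18193 with a symbol of their own on the array, 4 of complex II, 9 of complex III and 17 of complex V. Each was read from 1 probe set, the one with the highest mean over the 4 arrays, out of 57 probe sets for these genes. The rule uses symbols and mean signal and no difference between labels, but it was set with earlier results of these data known. Sirt1 is an NAD-dependent protein deacetylase, and the series asks how its overexpression alters gene expression in the heart. Each sample is 1 Affymetrix mouse array of total heart RNA, and the values are deposited log2 signals. The sources used here do not state the transgene promoter, the line, or the age and sex of the mice.

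Complex II, succinate dehydrogenase, oxidises succinate in the citric acid cycle and hands the electrons to coenzyme Q, and it pumps no protons. Complex III passes electrons from reduced coenzyme Q to cytochrome c and pumps protons across the inner mitochondrial membrane. Complex V, the ATP synthase, lets the protons flow back and makes ATP, which the beating heart uses up within seconds, so that cardiac muscle is among the tissues richest in these complexes. The mitochondrial genome encodes a subunit of complex III and a pair of subunits of complex V, and no probe set carried their symbols here.

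The arrays limit what can be said about the transgene. NTg 1 and the library labelled Tg-Sirt1 1 carried nearly the same values: the SD of their differences was 0.0759 log2 units over 45037 probe sets and 0.0184 over the 30 genes, where the other 5 pairs of arrays had 0.342 to 0.405 and 0.14 to 0.181. They are called the near-identical pair below, and no array was moved to another label. Whether they hold RNA of 1 heart or a file under the wrong label cannot be told from the sources used here. If either is so, the 4 arrays are not 2 independent hearts of each genotype, and every difference below is therefore one between labels, not shown to be one between genotypes. The signal of Sirt1 was 7.30 and 7.17 in the libraries labelled NTg, 7.16 in the library labelled Tg-Sirt1 1 and 7.93 in Tg-Sirt1 2, so that 1 of the 2 libraries labelled Tg-Sirt1 stood above NTg. These values are of 1 probe set. Whether it reads the transgene was not tested, so they are no check of genotype. The mean signal of 11 cardiomyocyte markers was 13.53 to 13.61 on the 4 arrays, with Myh6, the adult cardiac myosin heavy chain, at 13.86 to 13.93. None of these 11 markers lay below the median of all signals. Of the 11, 10 were lower than the pair on NTg 2 and 9 on Tg-Sirt1 2. Nppa, also an atrial marker, was higher there by 0.485 and 0.545. Of the 5 atrial markers 4 were higher than the pair and 1 lower on each of these arrays. Their medians were 0.35 on NTg 2 and 0.545 on Tg-Sirt1 2, so atrial signals were not even over the arrays. The part of this in the differences below was not tested. The 9 fibroblast markers had a mean of 11.19 on both arrays of the near-identical pair, 10.28 on NTg 2 and 10.82 on Tg-Sirt1 2. The brown fat gene Ucp1, of a tissue also rich in mitochondria, read 7.26 and 7.34 on the pair, 6.23 on NTg 2 and 5.97 on Tg-Sirt1 2. Of the 6 brown fat markers 3 were lower than the pair on NTg 2 and 3 higher, with a median of -0.0025. On Tg-Sirt1 2 all 6 were lower, with a median of -0.145. The 3 higher on NTg 2 were Dio2, Cox7a1 and Cox8b. The last 2 are also in the complex IV list below, with mean signals of 12.475 and 12.93, so they do not mark brown fat alone. Cidea moved with Ucp1, at -0.555 on NTg 2 and -1.145 on Tg-Sirt1 2. Of all genes 50.3% were lower on NTg 2 and 40.8% on Tg-Sirt1 2. In whole hearts, fewer cells of a type and less RNA per cell cannot be told apart.

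All 30 genes gave strong signals. Their means over the 4 arrays ran from 11.49 for Sdhc to 13.79 for Uqcrb, and these probe sets ranked between 97.4% and 99.9% of all genes by signal. From here on, 4 values given in array order stand for NTg 1, NTg 2, the library labelled Tg-Sirt1 1, and Tg-Sirt1 2. The median over the 4 complex II genes was 12.63, 12.46, 12.64 and 12.595 in array order. For the 9 complex III genes the medians were 12.66, 12.49, 12.67 and 12.73, and for the 17 complex V genes 12.92, 12.81, 12.92 and 12.85. Probe sets differ in how strongly they bind, so the order of complexes by signal is not an order of transcript amount. Within each complex the array NTg 2 had the lowest median. The spread of genes within a complex was far wider than the spread between arrays: complex V ran from 11.53 for Atp5e to 13.83 for Atp5a1, while no gene of the 30 varied by more than 0.50 log2 units over the 4 arrays.

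**Figure D1:**
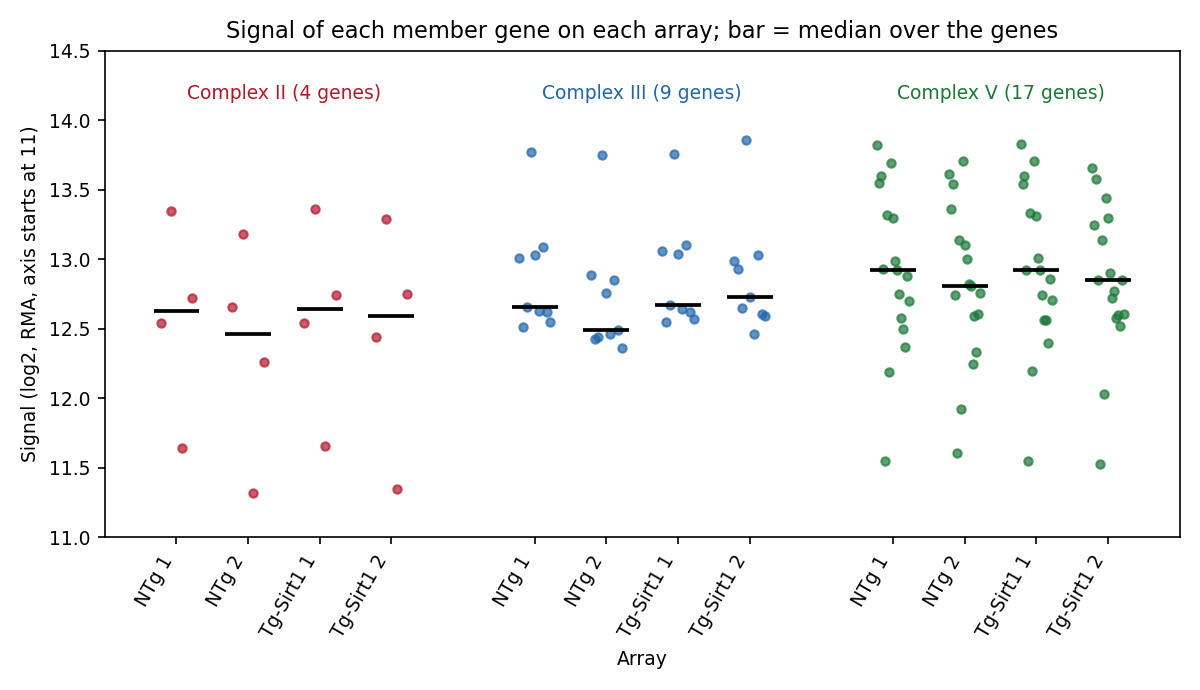
Signal on the log2 scale (vertical axis, starting at 11) of each member gene on each array, by complex; a point is a gene and a black bar the median over the genes of that complex. The bars move by little between arrays, from 12.81 to 12.92 in complex V, while the genes within complex V lie between 11.53 and 13.83.

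The members varied less between arrays than the median gene did. The gap between the highest and the lowest array had a median of 0.205 log2 units over the 30 genes, 0.28 in complex II, 0.23 in complex III and 0.19 in complex V. It was 0.34 over all genes and 0.32 over the 461 genes whose mean signal lay in the same range, 11.49 to 13.79. These 461, called genes of like signal below, include the 30 and share only the ends of their range. Their median mean signal was 12.165, against 12.78 for the 30, so they are not matched in brightness. Other mitochondrial and cardiac genes were as steady, with 0.205 for 36 complex I genes, 0.19 for 17 complex IV genes and 0.19 for the 11 cardiomyocyte markers. In contrast, 25% of all genes had a gap above 0.5, and 0% of the 30 did. The widest gaps were 0.50 for Uqcr10, 0.49 for Sdhd and 0.34 for Sdhc, and the narrowest 0.06 for Atp5c1 and 0.07 for Atp5k.

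Between the labels no gene of the 30 passed. In limma 0 of 30 members had an adjusted p under 0.05, where the same was true of 0% of 18193 genes, and 0 members had an unadjusted p under 0.05, against 0.055% of all genes. The differences, Tg-Sirt1 mean minus NTg mean, ran from -0.125 for Atp5g3 to 0.27 for Uqcr10, with standard errors of 0.138 to 0.191. Every 95% confidence interval included 0, and together they reached from -0.51 to 0.72 log2 units. For each gene, a difference anywhere within its own interval was not excluded. Because the near-identical pair sits across the labels, the test could hardly have called any gene, and a lack of calls is no sign of equal expression. For 27 of the 30 genes the difference was smaller than the larger of the 2 SD values within a label. The near-identical pair largely sets this count, because each label holds 1 array of it. The share over all genes was not computed, so the count says nothing particular about the members.

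**Figure D2:**
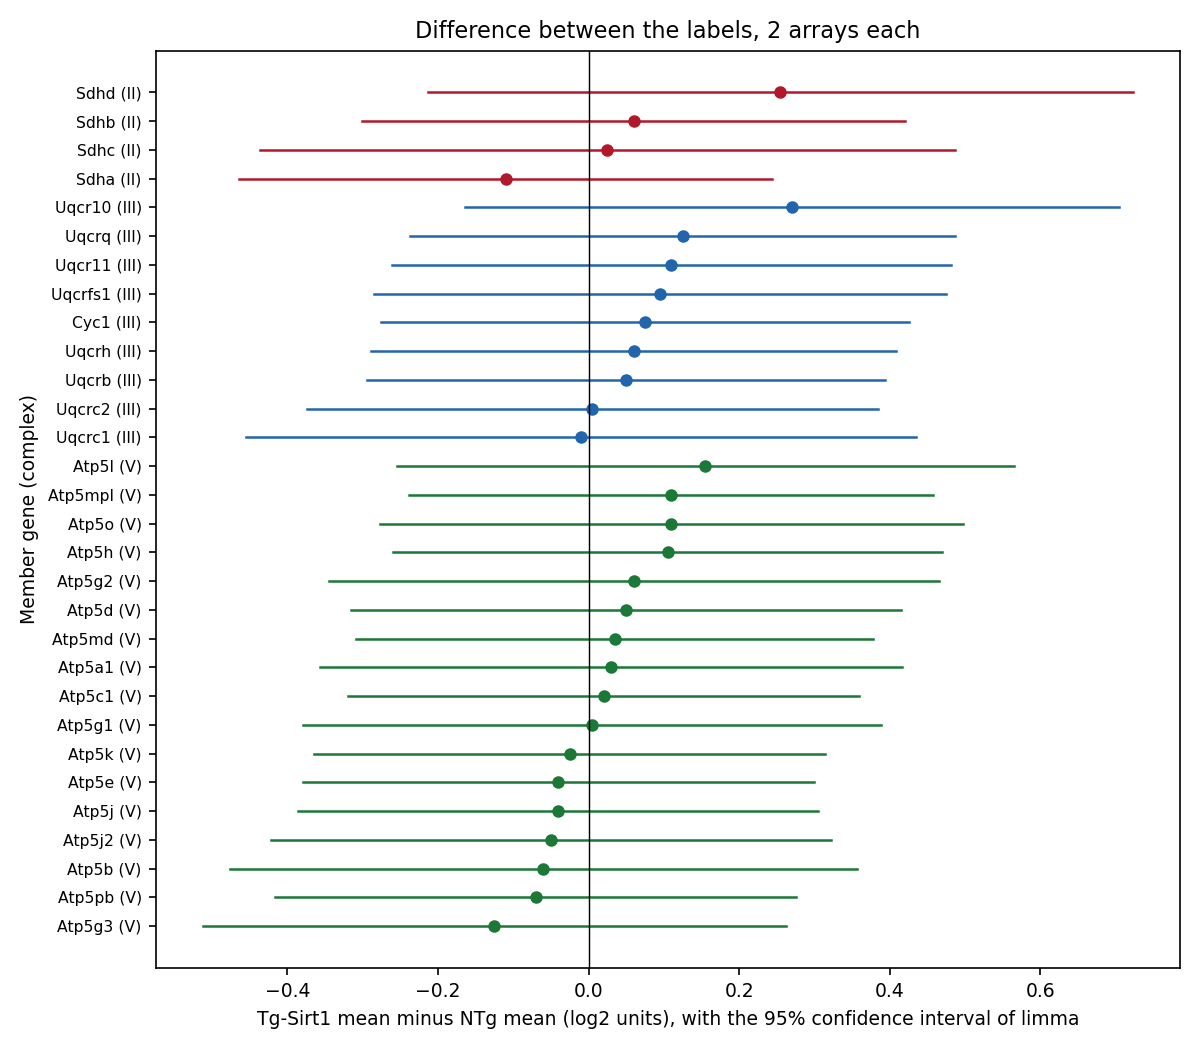
Tg-Sirt1 mean minus NTg mean in log2 units (horizontal axis) for each member gene, coloured by complex; lines are 95% confidence intervals from limma with 2 arrays per label. All 30 intervals cross 0, and the points lie between -0.125 and 0.27.

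By complex, the medians of these differences were 0.0425 in complex II with 3 of 4 genes higher in Tg-Sirt1, 0.075 in complex III with 8 of 9 higher, and 0.02 in complex V with 10 of 17 higher; normalizing the quantiles once more gave -0.0181, 0.055 and -0.0112, so that complexes II and V changed sign. In all, 21 of 30 had a higher Tg-Sirt1 mean (70%), against 53.1% of all genes and 69.6% of the 461 genes of like signal, so the count was near that background. The count was 9 of 30 without NTg 2 (30%), against 39.3% of the genes of like signal and 56.5% of all genes. It was 25 without Tg-Sirt1 2 (83.3%, against 81.6% and 51.4%), 16 without the library labelled Tg-Sirt1 1 (53.3%, against 59% and 55.1%) and 22 without NTg 1 (73.3%, against 74.6% and 51.4%). It was 16 of 30 with the values quantile normalized once more, against 52.5% of all genes, and 23 of 30 with each array centred on its median, against 61.6%. Both Tg-Sirt1 arrays lay above both NTg arrays for 4 genes, Sdhd, Uqcr10, Uqcrq and Atp5mpl, and below for 0, against 11.4% and 9.3% of all genes and 13.4% and 3.04% of those of like signal.

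More of the variation lay between the near-identical pair and each of the other arrays. Compared with the mean of the pair, NTg 2 was lower for 23 of 30 genes (76.7%), with a median of -0.175 log2 units. This held for 50.3% of all genes, but for 81.6% of the 461 genes of like signal, whose median was -0.195, so the members' count was near the background at their brightness. The 9 genes of complex III were all lower on NTg 2, by 0.015 to 0.275, and 6 of the 9 with the values quantile normalized once more. In complex II 3 of 4 were lower, and in complex V 11 of 17, which became 8 with that normalization and 16 with centred arrays. After a second quantile normalization 17 of 30 were lower, against 54.4% of the genes of like signal, and the median shifts of complexes II, III and V were -0.0875, -0.0306 and 0.0163. With each array centred on its median 28 of 30 were lower (93.3%), against 86.8% of the genes of like signal and 59.7% of all genes. Differences between single arrays have no replicate check and carry no test.

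Tg-Sirt1 2 was lower than the pair for 22 of 30 genes, with a median of -0.055, where 40.8% of all genes and 59.7% of the genes of like signal were lower. After a second quantile normalization 14 of 30 were lower (46.7%), with a median of 0.0094. This was near the 46.6% of the genes of like signal, where 37.2% of all genes were lower. Differences past 0.25 log2 units were few. On NTg 2 they were 6 of 30 lower (23.6% of all genes and 42.1% of those of like signal) and 0 higher (17.9% and 5.64%). On Tg-Sirt1 2 they were 4 lower (10.9% and 16.5%) and 1 higher (16.7% and 6.29%). Within the pair itself the largest difference of a member was 0.06, for Atp5md.

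**Figure D3:**
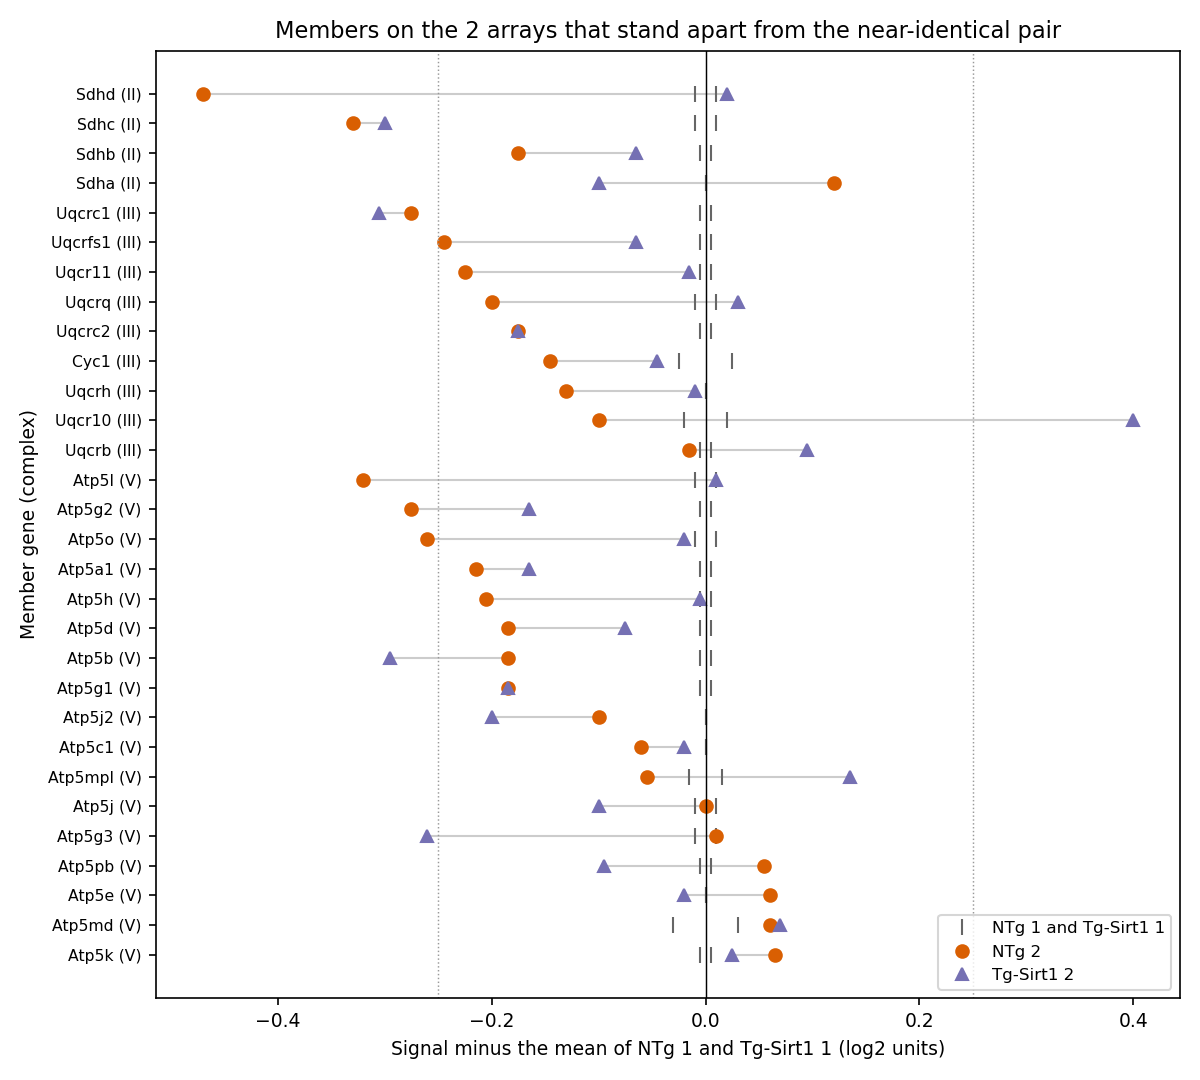
Signal of each member gene on NTg 2 (circles) and Tg-Sirt1 2 (triangles) minus the mean of NTg 1 and the library labelled Tg-Sirt1 1 (horizontal axis, log2 units); grey ticks are the 2 arrays of the near-identical pair and dotted lines mark 0.25. Most circles lie left of 0, down to -0.47 for Sdhd, and the triangle farthest to the right is Uqcr10 at 0.40.

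Complex II held the largest single shift. Sdhd, a membrane anchor of the complex, read 12.72, 12.26, 12.74 and 12.75 in array order. It was low on NTg 2 alone, and the labels did not overlap because the near-identical pair, 0.02 apart, differed in the same direction. The log2 difference between the labels was 0.255 with a standard error of 0.191 (limma unadjusted p = 0.231, adjusted p = 0.994). It was 0.025 without NTg 2 and 0.485 without NTg 1. A dimmer Sdhd probe set read 8.86, 8.88, 8.86 and 9.23, not low on NTg 2 and high on Tg-Sirt1 2.

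Sdhc, the other membrane anchor, read 11.64, 11.32, 11.66 and 11.35. It was thus low on one array of each label, with a difference between the labels of 0.025 ± 0.188 (SE). Sdhb, the iron-sulfur subunit, read 13.35, 13.18, 13.36 and 13.29, lowest on NTg 2 again. Sdha, the flavoprotein that binds succinate, went the other way: 12.54, 12.66, 12.54 and 12.44, highest on NTg 2 and lowest on Tg-Sirt1 2. A second bright probe set of Sdha read 12.54, 12.15, 12.56 and 12.58, so that this gene's direction on NTg 2 depended on which probe set was read.

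In complex III, Cyc1, the heme subunit that passes electrons on to cytochrome c, read 13.01, 12.89, 13.06 and 12.99 in array order. Uqcrfs1, the Rieske iron-sulfur protein, read 13.09, 12.85, 13.10 and 13.03. Both were lowest on NTg 2, and the labels overlapped. The core proteins hold the complex together and are not redox-active. Their genes were low on both separate arrays in the chosen probe sets: Uqcrc1 read 13.03, 12.76, 13.04 and 12.73. Its partner Uqcrc2 read 12.63, 12.46, 12.64 and 12.46, a difference of 0.005 between the labels. A second bright Uqcrc2 probe set read 12.51, 12.57, 12.52 and 12.52, low on neither separate array.

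The small subunits of complex III held the largest difference between the labels. Uqcr10, a small accessory subunit, read 12.51, 12.43, 12.55 and 12.93 in array order. Tg-Sirt1 2 alone was high, 0.40 above the pair, and the difference between the labels was 0.27 ± 0.177 (SE; limma unadjusted p = 0.179, adjusted p = 0.994). Without Tg-Sirt1 2 the difference was 0.08, and without the library labelled Tg-Sirt1 1 it was 0.46. Uqcrq, another small subunit, read 12.55, 12.36, 12.57 and 12.59, low on NTg 2 alone, and its labels were apart by the 0.02 within the pair. Uqcr11 read 12.66, 12.44, 12.67 and 12.65, and the hinge protein gene Uqcrh 12.62, 12.49, 12.62 and 12.61, so both were low on NTg 2 alone. Uqcrb, the brightest of the 30, read 13.77, 13.75, 13.76 and 13.86, and a dimmer Uqcrb probe set read 12.07, 12.06, 12.10 and 11.87, low where the first was high.

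The 5 genes of the catalytic head and central stalk of the ATP synthase had gaps between arrays of 0.06 to 0.30. Atp5a1, the alpha subunit, read 13.82, 13.61, 13.83 and 13.66 in array order. Atp5b, the beta subunit that carries the catalytic sites, read 13.55, 13.36, 13.54 and 13.25. Both were lower on the 2 separate arrays than on the pair, with differences between the labels of 0.03 ± 0.158 (SE) and -0.06 ± 0.17 (SE). In the rotating stalk the gamma gene Atp5c1 read 13.60, 13.54, 13.60 and 13.58, and the epsilon gene Atp5e 11.55, 11.61, 11.55 and 11.53. Their gaps were 0.06 and 0.08. The delta gene Atp5d, also of this stalk, read 12.93, 12.74, 12.92 and 12.85. Its gap was 0.19, beside 0.22 for Atp5a1. A second bright Atp5d probe set read 12.36, 12.10, 12.37 and 11.63, a drop on Tg-Sirt1 2 of 0.735 below the pair that the representative did not share (-0.075).

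The rotor ring is built of identical c subunits that come from the 3 genes Atp5g1, Atp5g2 and Atp5g3, which encode the same mature protein behind different import peptides. Their arrays differed in pattern. Atp5g1 read 13.32, 13.14, 13.33 and 13.14 in array order, lower by 0.185 on both separate arrays. Atp5g2 read 12.19, 11.92, 12.20 and 12.03, lowest on NTg 2. Atp5g3 read 13.69, 13.71, 13.71 and 13.44: it was level on NTg 2 and 0.26 below the pair on Tg-Sirt1 2, which gave the lowest difference between the labels of the 30 genes, -0.125 ± 0.158 (SE; limma adjusted p = 0.994). Without Tg-Sirt1 2 this difference was 0.01.

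The ring genes make 1 protein from separate promoters, and the chosen probe set of Sdhd had the largest shift. The promoter windows of these 3 ring genes and of Sdhd are therefore shown. They are RefSeq windows of 300 bases (250 before and 50 after the start site) of the mouse build GRCm38.p6, read 5′ to 3′ on the strand of the gene, with matches to the motifs named below in capitals. Atp5g1 lies at chr11:96075582-96075881, Atp5g2 at chr15:102670998-102671297, Atp5g3 at chr2:73911277-73911576 and Sdhd at chr9:50603800-50604099, each on the minus strand.
Atp5g1: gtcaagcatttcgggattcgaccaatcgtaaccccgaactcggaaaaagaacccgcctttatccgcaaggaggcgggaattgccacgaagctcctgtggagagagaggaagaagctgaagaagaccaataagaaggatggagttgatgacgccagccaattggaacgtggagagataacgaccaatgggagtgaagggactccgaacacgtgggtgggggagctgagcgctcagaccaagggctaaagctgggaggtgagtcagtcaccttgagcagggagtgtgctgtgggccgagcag
Atp5g2: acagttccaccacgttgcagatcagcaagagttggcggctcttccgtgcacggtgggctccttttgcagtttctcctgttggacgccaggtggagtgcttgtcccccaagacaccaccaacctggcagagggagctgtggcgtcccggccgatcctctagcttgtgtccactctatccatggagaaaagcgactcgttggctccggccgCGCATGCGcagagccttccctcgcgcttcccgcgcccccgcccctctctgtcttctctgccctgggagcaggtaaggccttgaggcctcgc
Atp5g3: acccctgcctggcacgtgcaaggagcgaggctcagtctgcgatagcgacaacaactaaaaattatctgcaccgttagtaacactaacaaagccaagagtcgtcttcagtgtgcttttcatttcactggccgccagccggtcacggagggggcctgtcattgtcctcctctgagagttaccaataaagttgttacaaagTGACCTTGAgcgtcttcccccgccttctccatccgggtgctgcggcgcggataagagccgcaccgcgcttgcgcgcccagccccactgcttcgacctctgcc
Sdhd: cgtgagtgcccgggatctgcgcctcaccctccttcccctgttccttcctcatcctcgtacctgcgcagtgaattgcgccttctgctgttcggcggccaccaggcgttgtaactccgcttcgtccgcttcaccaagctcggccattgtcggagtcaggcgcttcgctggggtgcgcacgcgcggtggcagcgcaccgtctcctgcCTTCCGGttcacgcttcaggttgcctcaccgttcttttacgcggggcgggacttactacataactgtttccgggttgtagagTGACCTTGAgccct

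Windows were found for 23 of the 30 genes. Motifs of regulators known for mitochondrial genes were looked for on both strands: the NRF1 core CGCATGCG, the ETS core CCGGAAG (which GABP binds), the ERR site TCAAGGTCA and the YY1 site AAGATGGC. The ETS core was in the windows of 10 of 23 genes (43.5%), against 9.93% of the 27025 genes with a window and 17.9% of 358 other genes of like signal. The NRF1 core was in 6 (26.1%, against 2.07% and 5.59%), the YY1 site in 3 (13%, against 3.19% and 6.98%) and the ERR site in 2 (8.7%, against 0.466% and 0.279%). The 2 genes with the ERR letters were Sdhd, at base 37 after the start, and Atp5g3, 52 bases before it. Atp5g2 held the NRF1 core 41 bases before its start, and Atp5g1 held none of the 4 in this window. Of the genes lowest on NTg 2 in the other complexes, Uqcrc1 held the NRF1 core and Atp5l the NRF1 core and 2 ETS cores. The 15 genes with any match had a median of -0.13 on NTg 2 minus the pair and the 8 without had -0.185. A match is a run of letters and not a measured binding site.

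The peripheral stalk holds the head still while the ring turns. Its genes Atp5o (12.88, 12.61, 12.86 and 12.85 in array order) and Atp5h (13.30, 13.10, 13.31 and 13.30) were low on NTg 2 alone. Atp5j read 12.99, 13.00, 13.01 and 12.90, and Atp5pb 12.70, 12.76, 12.71 and 12.61. These last were lowest on Tg-Sirt1 2. None of the 4 showed labels that did not overlap.

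The membrane subunits help to join synthases into dimers that bend the cristae. Atp5l, the g subunit, had the largest shift of complex V on NTg 2: it read 12.58, 12.25, 12.56 and 12.58 in array order, a difference between the labels of 0.155 ± 0.167 (SE) that was -0.01 without NTg 2. The e subunit gene Atp5k, its dimer partner, read 12.75, 12.81, 12.74 and 12.77 and was not low there. Atp5j2 read 12.92, 12.82, 12.92 and 12.72. Among the genes of its smallest membrane proteins, Atp5mpl read 12.37, 12.33, 12.40 and 12.52, highest on Tg-Sirt1 2, and Atp5md read 12.50, 12.59, 12.56 and 12.60.

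Several directions on single arrays depended on the probe set. A second probe set within 1 log2 unit of the representative existed for 10 genes, and for 5 of them, Sdha, Uqcrc2, Atp5h, Atp5pb and Atp5k, NTg 2 lay on the other side of the pair in it. For Sdha the values were 0.12 and -0.40, for Atp5pb 0.055 and -0.315, for Atp5h -0.205 and 0.05, for Uqcrc2 -0.175 and 0.055, and for Atp5k 0.065 and -0.005. On Tg-Sirt1 2 the side of the pair differed for 4 of the 10 genes. The sign of the difference between the labels differed for 8 of the 10. Within the near-identical pair all 27 other probe sets of these genes differed by at most 0.15. A dim probe set of Atp5a1 read 7.05, 7.38, 6.90 and 4.78 in array order, far lower on Tg-Sirt1 2 than elsewhere. The 3' minus 5' signal of the Gapdh control was 0.18 and 0.19 on the pair, 0.69 on NTg 2 and 1.34 on Tg-Sirt1 2, and this control rises as 5' signal is lost; its part in these differences was not tested.

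**Figure D4:**
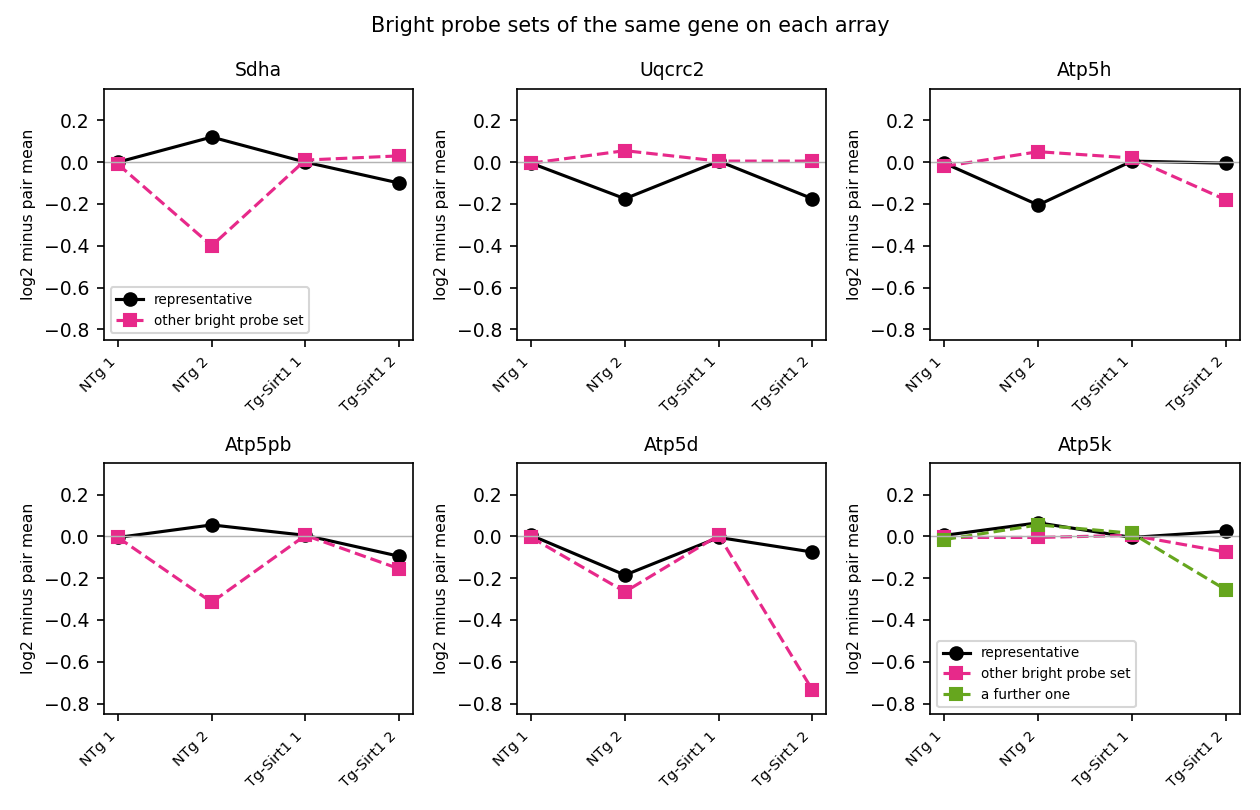
Signal minus the mean of the near-identical pair (vertical axis, log2 units) on the 4 arrays for bright probe sets of 6 genes picked after their values were seen; black circles are the representative and squares the other probe sets within 1 log2 unit. On NTg 2 Sdha lies at 0.12 in one probe set and at -0.40 in the other, and on Tg-Sirt1 2 the Atp5d probe sets lie at -0.075 and -0.735.

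Genes that build or serve the complexes did not pass either: of 4 complex II assembly factors, 6 of complex III, 9 genes listed for complex V assembly and regulation, 11 carriers and transporters, 12 of coenzyme Q synthesis and 14 regulators, 0 had an adjusted p under 0.05 in limma (0% of all genes), and 0 had an unadjusted p under 0.05. Sdhaf3, which helps to mature the iron-sulfur subunit of complex II, read 8.07, 7.64, 8.13 and 8.54 in array order (difference 0.48, unadjusted p = 0.0721). Ttc19 of complex III had 0.27, and Atpaf1, which helps to assemble the synthase head, had 0.29. The median difference was 0.0675 for complex II assembly, 0.07 for complex III assembly and 0.145 for complex V assembly and regulation. It was 0.08 for carriers and transporters and 0.05 for coenzyme Q synthesis. Over all genes it was 0.015, but 0.06 once dim probe sets were left out and 0.08 over the 461 genes in the members' signal range. The lists are unlike these backgrounds in signal, and their medians were not tested.

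Atpif1, the inhibitor of ATP synthase, has the newer name Atp5if1 but is annotated under the older one, so it was not counted among the 30. It was singled out after its values were seen. It read 11.68, 11.02, 11.70 and 11.57 in array order, a shift of -0.67 on NTg 2 that is larger than that of any of the 17 complex V genes (lowest -0.32). Its difference between the labels was 0.285 ± 0.238 (SE; limma adjusted p = 0.994). With Atpif1, Dmac2 and Dmac2l, which all have an Atp5 synonym, the median difference of complex V was 0.0325.

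Regulators of mitochondrial genes had a median gap between arrays of 0.495, beside 0.205 for the 30 subunit genes. The regulators were dimmer, with a median mean signal of 8.88 against 12.78. No gap was taken over genes of the regulators' own signal, so their steadiness cannot be ranked against that of the 30. Gabpa, whose protein binds the ETS core, read 8.79, 8.35, 8.82 and 9.26 (difference 0.47, unadjusted p = 0.0835), low on NTg 2 and high on Tg-Sirt1 2. The coactivator gene Pprc1 had 0.43 and the receptor gene Ppara 0.285, these 3 being named for their smallest p. Of the 14 regulators 7 were higher and 7 lower, with a median of 0.015 and a range from -0.595 to 0.47. The lowest was the coactivator gene Ppargc1b, named after its values were seen, which read 11.03, 10.84, 11.06 and 9.62 in array order, low on Tg-Sirt1 2. The neighbouring complexes showed the same order of size: 36 complex I subunit genes had a median difference of 0.045 with 27 higher, and 17 complex IV genes 0.03 with 10 higher. On NTg 2 the median shift was -0.0875 in complex I and -0.095 in complex IV, beside -0.2525, -0.175 and -0.10 in complexes II, III and V. The complex I and IV lists were taken by symbol and hold genes with mean signals down to 4.83 and 4.64. None of the 30 lay below 11.49, so the sets are unlike in signal. After a second quantile normalization the shifts of complexes II, III and V were -0.0875, -0.0306 and 0.0163. These comparisons share all 4 arrays, and the differences between complexes were not tested.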

How the data were processed

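The deposited values were log2 signals with 2 decimals, 1 per probe set and array, which the authors made with RMA in Affymetrix Expression Console per the labels' processing notes (no versions). RMA corrects the background, quantile normalizes and summarises probes, so a change in total RNA is removed. The deposited arrays still did not share 1 distribution. Without control probe sets their medians were 6.23, 6.30, 6.24 and 6.22 in array order, and their upper quartiles 7.83, 7.69, 7.82 and 7.78. The upper quartile was thus lowest on NTg 2. Of 45101 probe sets, 64 controls were left out. Genes were named from the platform annotation where a probe set had 1 symbol, and all 30 members matched the RefSeq table of GRCm38.p6. Labels were compared in limma 3.58.1 under R 4.3.3 (lmFit, eBayes, no trend, two-sided, Benjamini-Hochberg over all 18193 genes, threshold 0.05), with 2 residual degrees of freedom and a prior of 3.97. With 2 arrays a label, the smallest two-sided p of an exact permutation test is 0.333. The number of arrays limits the precision, and p-values measure only the spread between these arrays.

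The code of the fit was run on simulated data with larger differences than those of the members. That checks the code and not the design of these arrays. Members, lists, motifs and the rule for naming genes (all members, and up to 3 genes per context list by smallest p) were chosen with earlier results of these data known. The complex V assembly list also holds Foxred1, which is known from complex I and is not described, and old names of Atp5md and Atp5mpl. The alternatives were a replicate block, arrays left out, the near-identical pair counted once, normalization, filters, offset, priors and the choice of probe set.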

Additional observations from a re-analysis of the deposited data

How the results depend on the processing

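No member passed under any alternative, and the counts of called genes and probe sets were 0 in each except the unmoderated test, in which 7 genes and 15 probe sets passed and 0 members did; leaving out any array gave 0 for both. Unadjusted p-values under 0.05 were fewest without Tg-Sirt1 2 (0 genes) and most with the pair counted once as Tg-Sirt1 (2603 genes); without NTg 1 there were 2337, and the lowest p of a member was 0.0256 (limma; adjusted p = 0.385). The replicate numbers are shared by the labels, but nothing else pairs the arrays: deviations of the arrays numbered 1 from their label means correlated at r = 0.207 over genes, which the near-identical pair enters. With the replicate number as a block the counts stayed at 0 and the medians were 0.0425, 0.075 and 0.02 for complexes II, III and V, as without it. The medians of complexes III and V moved by less than the replicate spread in every alternative. Leaving out 1 array put the first between 0 and 0.135 and the second between -0.035 and 0.05. The complex II median ran from -0.0525 (without the library labelled Tg-Sirt1 1) to 0.165 (without NTg 1), and was 0.1375 without Tg-Sirt1 2. Counting the near-identical pair once as NTg gave -0.0563 and as Tg-Sirt1 0.1613, and leaving out _x_at and _s_at probe sets gave 0.1425. With the pair counted once, the label left with 1 array is assumed to vary like the other.

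Member differences, none of them called, changed sign as follows, and the cause was not tested. With the mean over all probe sets they were 0.0425 for Sdha, -0.0125 for Sdhc, -0.015 for Uqcrb, -0.0075 for Uqcrc2 and for Uqcrq, -0.45 for Atp5a1, -0.09 for Atp5d, 0.005 for Atp5j2 and 0.0075 for Atp5pb. Without _x_at and _s_at probe sets they were 0.225 for Sdha, -0.05 for Sdhc, 0.05 for Atp5j2 and 0.085 for Atp5pb, and 2 members had no such probe set. After a second quantile normalization they were -0.0638 for Sdhc, -0.0525 for Uqcrc2, -0.0119 for Atp5g1, -0.005 for Atp5g2 and -0.0112 for Atp5md, and after centring 0.025 for Uqcrc1 and 0.01 for Atp5k. With the pair as NTg they were -0.135 for Sdhc, -0.0875 for Uqcrc2, -0.0575 for Atp5a1, -0.0925 for Atp5g1 and -0.0275 for Atp5g2, and with the pair as Tg-Sirt1 0.1225 for Uqcrc1, 0.0375 for Atp5b and -0.025 for Atp5md.

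Leaving out 1 array turned the sign of 19 members at least once, 13 of them without NTg 2, and the range over the 4 omissions was from -0.025 to 0.145 for Sdhb, from -0.135 to 0.185 for Sdhc, from -0.165 to 0.145 for Uqcrc1, from -0.085 to 0.095 for Uqcrc2, from -0.025 to 0.215 for Uqcrfs1, from -0.005 to 0.125 for Uqcrh, from -0.075 to 0.135 for Atp5a1, from -0.205 to 0.085 for Atp5b, from -0.01 to 0.05 for Atp5c1, from -0.045 to 0.145 for Atp5d, from -0.09 to 0.1 for Atp5g1, from -0.075 to 0.195 for Atp5g2, from -0.26 to 0.01 for Atp5g3, from -0.095 to 0.015 for Atp5j, from -0.15 to 0.05 for Atp5j2, from -0.055 to 0.005 for Atp5k, from -0.01 to 0.32 for Atp5l, from -0.01 to 0.08 for Atp5md and from -0.025 to 0.245 for Atp5o. The offset, the dim filter and the priors changed no sign.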
